A study of Homo sapiens with 6 samples.

Results

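The 33 genes described here encode the integrin subunits and laminin chains through which epithelial cells hold to their basement membrane, together with 3 partners of the hemidesmosome. They comprise 12 integrin alpha subunits, 8 integrin beta subunits, 10 laminin chains and the hemidesmosome genes DST, PLEC and CD151. Members were found as all non-control probes on the arrays whose RefSeq accession belongs to one of these gene symbols, which gave 46 of the 34127 probes and 33 of the 19740 genes named on the arrays, each with at least 1 probe.

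CAL-27 is a human tongue cancer line of squamous origin, long established in culture. Total RNA was compared between CAL-27 cells with a stable shRNA that targets XBP-1s (shXBP-1s, 3 samples) and CAL-27 cells with a negative control shRNA (shCtrl, 3 samples), with 1 array for each sample on 1-colour Agilent arrays. XBP-1s is the spliced, active form of XBP1, a transcription factor of the unfolded protein response. The comparison asks how the transcriptome of these cancer cells differs when XBP-1s is knocked down. The labels give neither a treatment nor a time point, and they do not say how many shRNA sequences or cell clones were used. They also do not say whether the 3 samples of a group came from separate cultures, so p-values measure the spread between these samples, which may be technical. In such bulk samples, fewer cells of a type and less RNA per cell cannot be told apart.

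An integrin is a dimer of 1 alpha and 1 beta subunit that binds matrix outside the cell and the cytoskeleton inside it, and the pairing sets the ligand. A laminin is a trimer of 1 alpha, 1 beta and 1 gamma chain secreted into the basement membrane. In stratified epithelia the integrin of ITGA6 and ITGB4 binds laminin at the hemidesmosome, where PLEC and DST tie it to keratin filaments, while integrins that contain ITGB1 join focal adhesions to actin.

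The array signal was divided by the 75th percentile of the signal on its array, and this ratio is called the relative signal below. A relative signal can be compared between arrays for the same probe but not between probes. That percentile ranged from 687.4 to 761.3 in shCtrl and from 792.0 to 983.4 in shXBP-1s, and between 82.08% and 84.81% of spots were well above background. The targeted gene checked the labels: the XBP1 probe, for which spliced and unspliced forms cannot be told apart here, was 2.39 lower on the log2 scale in shXBP-1s (SE 0.0408, adjusted p = 2.81e-07 by limma). Of 10 squamous epithelial markers, all were well above background on all 6 arrays. CDH1, EPCAM and PKP1 did not pass the test, and 5 others (KRT5, KRT14, KRT17, KRT6A and DSG3) were called higher in shXBP-1s. TP63 and SFN were higher by 0.93 and 0.71 on the log2 scale (adjusted p = 7.57e-05 and 5.73e-04 by limma), under 2-fold. The summed relative signal of the 10 squamous markers, in which bright probes weigh most here and in the sums below, ranged from 102.4 to 109.2 in shCtrl and from 140.3 to 165.2 in shXBP-1s, and its part in the results below was not tested. By the scan headers, slide 1 held shCtrl replicates 2 and 3, and slide 2 held shCtrl replicate 1 and every shXBP-1s sample, so a fit with the slide as a block compares shXBP-1s with shCtrl replicate 1 alone.

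Among the adhesion genes, the integrin subunits ITGA2, ITGA5, ITGA6 and ITGB6 were higher in shXBP-1s, whereas ITGA4, ITGB2 and the laminin chains LAMA4, LAMA5, LAMB1 and LAMB2 were lower. Of the 33 genes, 30 were tested, each through the brightest of its tested probes, taken by mean signal. ITGA8, ITGB3 and LAMA1 were not tested because none of their probes was well above background on all 3 arrays of either group. A gene was called when its Benjamini-Hochberg adjusted p in limma was below 0.05 over all tested probes and its change was at least 2-fold. ITGA2 was the 1 member called higher, against 2.30% of all 16821 tested genes. ITGA4 was the 1 member called lower, against 2.88% of all tested genes. With no minimum change required, 9 of the 30 members were higher at an adjusted p below 0.05, against 18.9% of all tested genes. Another 9 were lower, against 27.5% of all tested genes, and 12 did not pass. The groups did not overlap for 22 of the 30 members (73.3%), against 56.5% of all tested genes. The median log2 fold change of the members was 0.06, against -0.04 over all tested genes, and the members ranged from -1.13 to 1.25. Every one of the 42 tested member probes was well above background on all 6 arrays, so no member was tested through 1 group only.

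**Figure D1:**
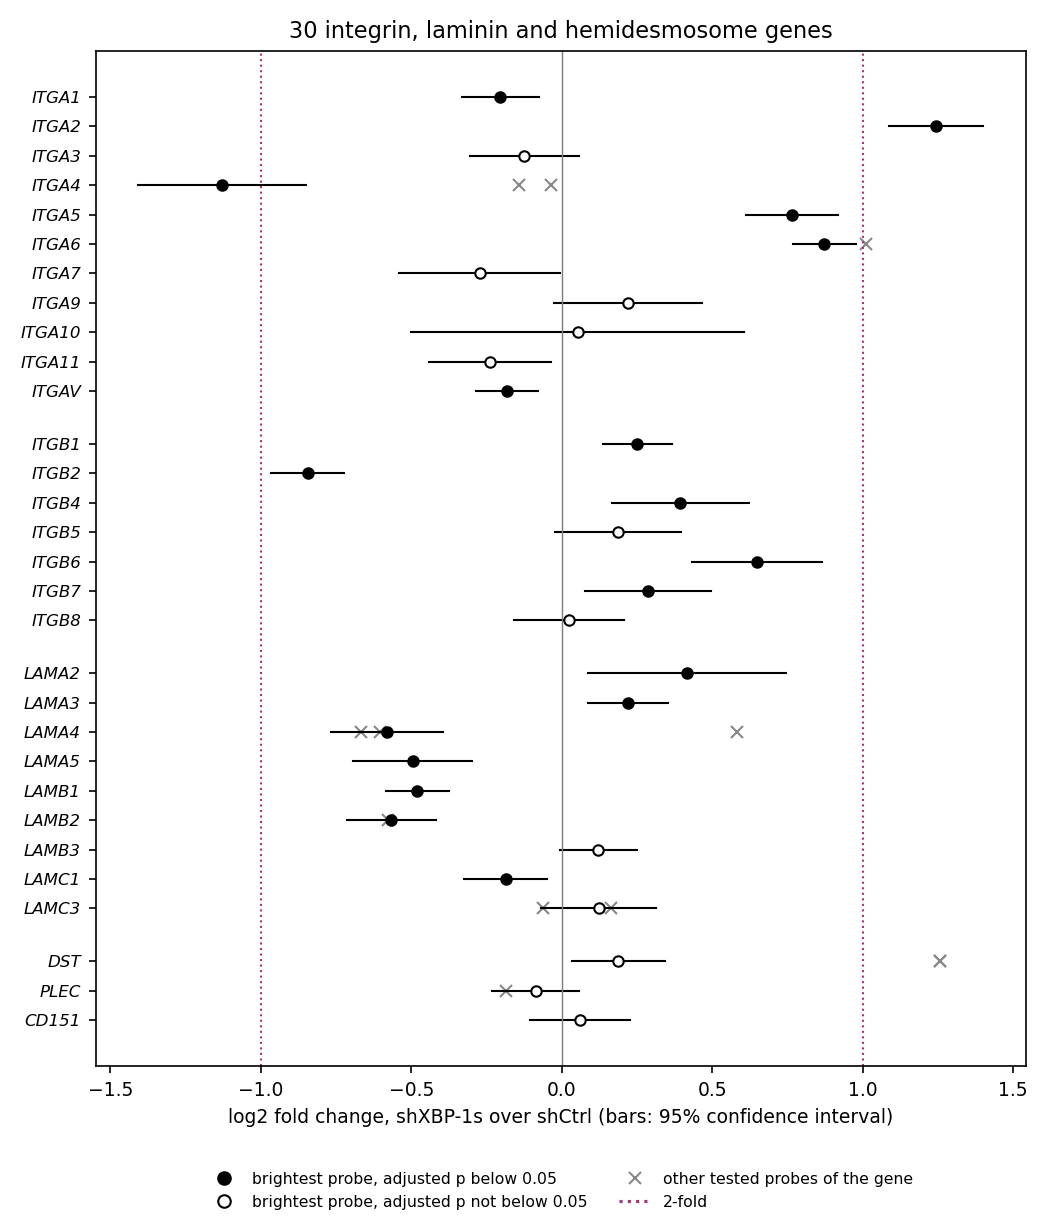
Log2 fold change of the 30 tested members (horizontal axis, shXBP-1s over shCtrl), ordered by family on the vertical axis. Circles are the brightest probe with its 95% confidence interval, filled where the adjusted p was below 0.05, crosses are the other tested probes of the gene, and dotted lines mark 2-fold. ITGA2 lies at 1.25 and ITGA4 at -1.13, and the 2 further DST probes lie at 1.26, where their crosses coincide.

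Of the 11 tested integrin alpha subunits, 3 were higher, 3 were lower and 5 did not pass. ITGA2, which pairs with ITGB1 as a collagen receptor, had a relative signal of 1.59, 1.86 and 1.87 on the shCtrl arrays (replicates 1, 2 and 3, here and below) and of 4.17, 4.24 and 4.15 on the shXBP-1s arrays. The shXBP-1s arrays lay close together, and the lowest of them was above the highest shCtrl array. ITGA2 was 2.37-fold higher (log2 fold change 1.25, SE 0.0674, adjusted p = 6.51e-06). ITGA6, the laminin receptor subunit of the hemidesmosome, had a relative signal of 10.8, 10.3 and 10.6 in shCtrl and of 19.8, 19.3 and 19.0 in shXBP-1s by its brightest probe. The groups were far apart relative to their spread, with a log2 fold change of 0.87 (SE 0.0451, adjusted p = 5.57e-06), which is 1.83-fold. A second ITGA6 probe read 1.55, 1.35 and 1.42 in shCtrl against 3.22, 2.85 and 2.65 in shXBP-1s. It was called higher at a log2 fold change of 1.01 (SE 0.0813, adjusted p = 4.11e-05), close to the 2-fold limit, and it fell under that limit when shCtrl replicate 2 (0.97) or shXBP-1s replicate 1 (0.93) was left out. ITGA5, which pairs with ITGB1 as the classical fibronectin receptor, read 0.335, 0.311 and 0.322 in shCtrl and 0.587, 0.548 and 0.511 in shXBP-1s. These groups did not overlap either, and the rise of 0.77 on the log2 scale (SE 0.0655, adjusted p = 5.60e-05) was 1.70-fold. ITGA2, ITGA5 and ITGA6 remained higher at an adjusted p below 0.05 with the slide as a block.

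ITGA4, whose dimers bind VCAM1 and fibronectin and are best known from leukocytes, moved the other way. Its brightest probe had a relative signal of 0.641, 0.742 and 0.845 in shCtrl and of 0.376, 0.350 and 0.293 in shXBP-1s. Every shXBP-1s array was below every shCtrl array, and the log2 fold change was -1.13 (SE 0.121, adjusted p = 1.78e-04), or 2.19-fold lower. Its other probes, with relative signals under 0.08 on all arrays, did not follow: their log2 fold changes were -0.04 and -0.14 with adjusted p-values of 0.820 and 0.266. The mean over the 3 probes was -0.44, and the brightest probe was at -0.93 when the slide entered as a block, both under 2-fold. ITGAV, the alpha subunit shared by most RGD-binding integrins, read 15.4, 15.7 and 15.7 in shCtrl and 13.5, 13.6 and 14.2 in shXBP-1s. That small difference of -0.18 on the log2 scale passed the test (SE 0.0448, adjusted p = 0.0126) but not with the slide as a block (adjusted p = 0.108). ITGA1, another collagen receptor subunit, fell by 0.20 (adjusted p = 0.0194), and it too did not pass with that block (adjusted p = 0.118).

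ITGA3, which pairs with ITGB1 as a laminin receptor of epithelial cells, had a relative signal of 3.44, 2.89 and 3.08 in shCtrl and of 3.10, 2.83 and 2.70 in shXBP-1s. The groups overlapped, and the log2 fold change of -0.12 did not pass (adjusted p = 0.243), with a 95% confidence interval from -0.30 to 0.06. The other alpha subunits that did not pass were ITGA7, ITGA9, ITGA10 and ITGA11, with log2 fold changes between -0.27 and 0.22. Their relative signals lay between 0.00762 and 0.293, and the confidence interval of the dimmest, ITGA10, ran from -0.50 to 0.60.

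**Figure D2:**
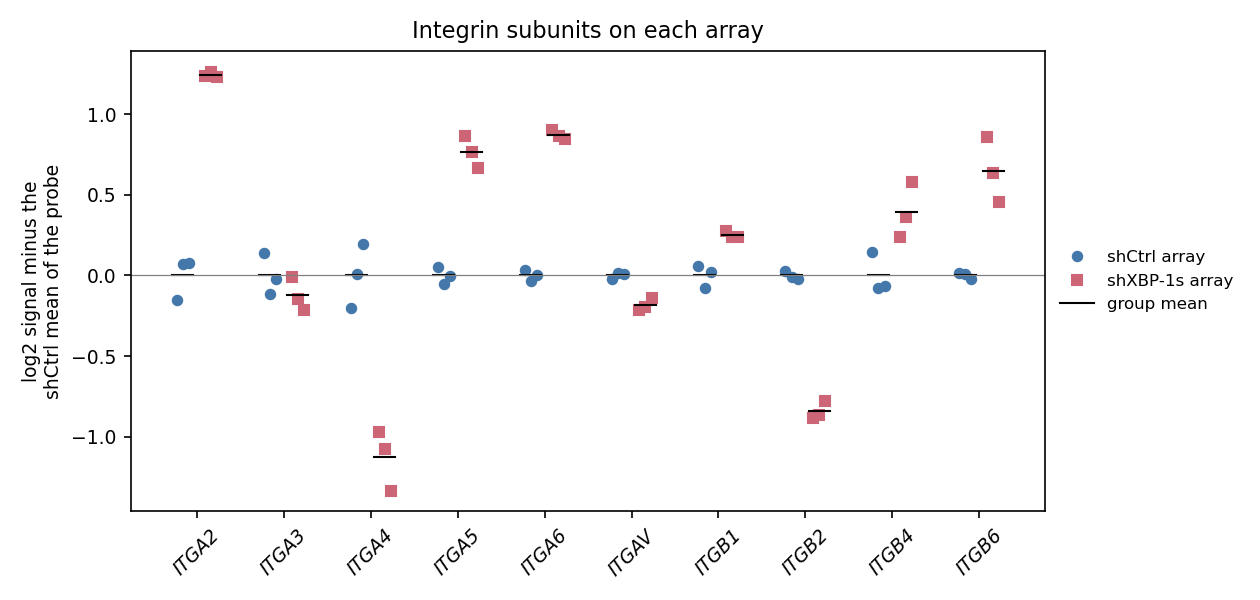
Log2 signal of 10 integrin subunits by their brightest probe on each of the 6 arrays (vertical axis, minus the shCtrl mean of the same probe). Circles are shCtrl arrays, squares are shXBP-1s arrays and black lines are group means, and the groups overlap for ITGA3 but not for the other 9.

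The promoter windows in the RefSeq tables for GRCh38.p14 run from 250 bases before to 50 after a gene's start, and 23 of the 33 members had at least 1 window, 32 windows in all. The motifs ACGTG and CCACG, which are core sequences bound by XBP1 and related factors, were searched on both strands, and the motifs can overlap each other. ACGTG was in 4 of the 32 member windows (12.5%), against 21.41% of all 35116 windows, and CCACG was in 12 (37.5%), against 38.09%. The members that held ACGTG were ITGA6, ITGA11 and DST. A match describes the letters of a window and not a site in use. The 250 bases before the start are shown for the alpha subunits with a called probe, ITGA2, ITGA4 and ITGA6, with matches in capitals, and for ITGA6 the outermost of its 2 starts is shown.
ITGA2, chr5:52989102-52989351, strand +: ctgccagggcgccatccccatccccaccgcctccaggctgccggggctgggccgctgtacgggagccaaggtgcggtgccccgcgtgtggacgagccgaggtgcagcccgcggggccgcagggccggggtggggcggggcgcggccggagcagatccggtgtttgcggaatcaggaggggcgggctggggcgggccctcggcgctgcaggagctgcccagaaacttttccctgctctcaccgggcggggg
ITGA4, chr2:181457136-181457385, strand +: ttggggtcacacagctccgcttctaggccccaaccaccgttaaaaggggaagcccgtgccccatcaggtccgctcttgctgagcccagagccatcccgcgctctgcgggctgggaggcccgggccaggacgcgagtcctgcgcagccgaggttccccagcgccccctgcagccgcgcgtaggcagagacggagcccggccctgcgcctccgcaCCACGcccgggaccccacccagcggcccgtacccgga
ITGA6, chr2:172427086-172427335, strand +: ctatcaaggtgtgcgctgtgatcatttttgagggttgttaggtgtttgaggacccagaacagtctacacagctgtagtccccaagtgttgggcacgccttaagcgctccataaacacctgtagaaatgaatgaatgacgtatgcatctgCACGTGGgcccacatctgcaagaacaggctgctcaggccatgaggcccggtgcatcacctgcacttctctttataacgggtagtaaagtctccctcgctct
The ITGA2 window held neither motif, the ITGA4 window held CCACG once, and in the ITGA6 window ACGTG on both strands and CCACG on the reverse strand overlapped in a single run.

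Of the 7 tested integrin beta subunits, 4 were higher, 1 was lower and 2 did not pass, and none reached 2-fold. ITGB6, an epithelial partner of ITGAV that binds fibronectin and the latency peptide of TGF-beta, had a relative signal of 0.863, 0.857 and 0.839 in shCtrl and of 1.55, 1.33 and 1.17 in shXBP-1s. The shXBP-1s arrays were more spread than the shCtrl arrays but all lay above them. Its log2 fold change was 0.65 (SE 0.0934, adjusted p = 8.61e-04), and it passed with the slide as a block (adjusted p = 0.0109). ITGB4, the hemidesmosomal partner of ITGA6, read 26.2, 22.4 and 22.6 in shCtrl and 27.9, 30.4 and 35.3 in shXBP-1s. The lowest shXBP-1s array was only slightly above shCtrl replicate 1. The log2 fold change of 0.39 (SE 0.0978, adjusted p = 0.0132) fell to 0.25 with the slide as a block and no longer passed (adjusted p = 0.175). ITGB1, the most widely shared beta subunit, read 4.68, 4.25 and 4.56 in shCtrl and 5.44, 5.31 and 5.31 in shXBP-1s. This was a difference of 0.25 on the log2 scale (SE 0.0497, adjusted p = 0.00449), which missed the threshold with the slide as a block (adjusted p = 0.0630).

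ITGB2, the beta subunit of the leukocyte integrins, had a relative signal of 0.544, 0.531 and 0.527 in shCtrl and of 0.290, 0.292 and 0.311 in shXBP-1s. Both groups were tight and far apart. ITGB2 was 1.80-fold lower (log2 fold change -0.84, SE 0.0523, adjusted p = 1.13e-05), and its value was -0.87 with the slide as a block. ITGB7, which pairs with ITGA4 on lymphocytes, was higher by 0.29 on the log2 scale (adjusted p = 0.0344). After another background correction (normexp) it was at -0.06, and at 0.24 when quantile normalization followed normexp. With the slide as a block ITGB7 was at 0.12. Of 8 leukocyte markers, 7 were measured and all 7 were well above background on all 6 arrays, with 0 called. PTPRC had an unscaled signal between 241.1 and 361.9 and CD3E between 34.8 and 53.3, with log2 fold changes of 0.05 and -0.04 that did not pass. Their summed relative signal was between 13.6 and 16.5 in shCtrl and between 14.2 and 14.6 in shXBP-1s, so the groups overlapped, and its part in the values of ITGA4, ITGB2 and ITGB7 was not tested. ITGB5 and ITGB8, both partners of ITGAV, had log2 fold changes of 0.19 and 0.02 that did not pass (adjusted p-values of 0.139 and 0.834).

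The laminin chains moved in both directions. The chains LAMA4, LAMA5, LAMB1, LAMB2 and LAMC1 were lower in shXBP-1s, LAMA2 and LAMA3 were higher, LAMB3 and LAMC3 did not pass, and none of the 9 tested chains reached 2-fold. LAMB1, the common beta chain of most basement membranes, had a relative signal of 14.8, 14.1 and 14.9 in shCtrl and of 10.3, 10.5 and 10.7 in shXBP-1s. The groups were clearly apart at a log2 fold change of -0.48 (SE 0.0454, adjusted p = 9.57e-05). LAMB2, the alternative beta chain of kidney, muscle and nerve basement membranes, read 1.59, 1.70 and 1.46 in shCtrl and 1.11, 1.06 and 1.04 in shXBP-1s. Both LAMB2 probes gave nearly the same change, -0.57 (SE 0.0635, adjusted p = 2.27e-04) and -0.58 (SE 0.0786, adjusted p = 6.45e-04). LAMA5, the main alpha chain of mature epithelial basement membranes, read 0.207, 0.206 and 0.214 in shCtrl and 0.164, 0.149 and 0.133 in shXBP-1s. It was lower in every shXBP-1s array, by a log2 fold change of -0.50 (SE 0.0850, adjusted p = 0.00218). LAMC1, the gamma chain of most laminins, read 7.92, 6.93 and 7.68 in shCtrl and 6.78, 6.58 and 6.42 in shXBP-1s. Its groups were separated by a narrow gap, with a log2 fold change of -0.19 (SE 0.0595, adjusted p = 0.0367). All 5 lower chains also passed with the slide as a block. LAMC1 did not pass with quantile normalization (-0.12, adjusted p = 0.186), and LAMA5 did not pass after normexp (-0.66, adjusted p = 0.116).

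LAMA3 and LAMB3 are chains of the laminin that anchors stratified epithelium. LAMA3 had a relative signal of 5.15, 4.69 and 4.94 in shCtrl and of 5.42, 5.80 and 6.01 in shXBP-1s. The groups did not overlap, and the log2 fold change of 0.22 (SE 0.0571, adjusted p = 0.0159) did not pass with the slide as a block (0.16, adjusted p = 0.171). LAMB3 read 28.9, 28.4 and 28.1 in shCtrl and 29.5, 30.6 and 32.8 in shXBP-1s. Its groups did not overlap either, but the log2 fold change of 0.12 did not pass (adjusted p = 0.115, 95% confidence interval from -0.01 to 0.25). With quantile normalization LAMB3 passed (0.20, adjusted p = 0.00346). LAMA2, the alpha chain of muscle basement membrane, was dim, with relative signals between 0.0213 and 0.0352. Its log2 fold change of 0.42 (adjusted p = 0.0468) turned to -0.70 after normexp. When quantile normalization followed normexp, LAMA2 was at 0.12 and did not pass. LAMC3, a minor gamma chain, did not pass by any of its 3 probes.

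**Figure D3:**
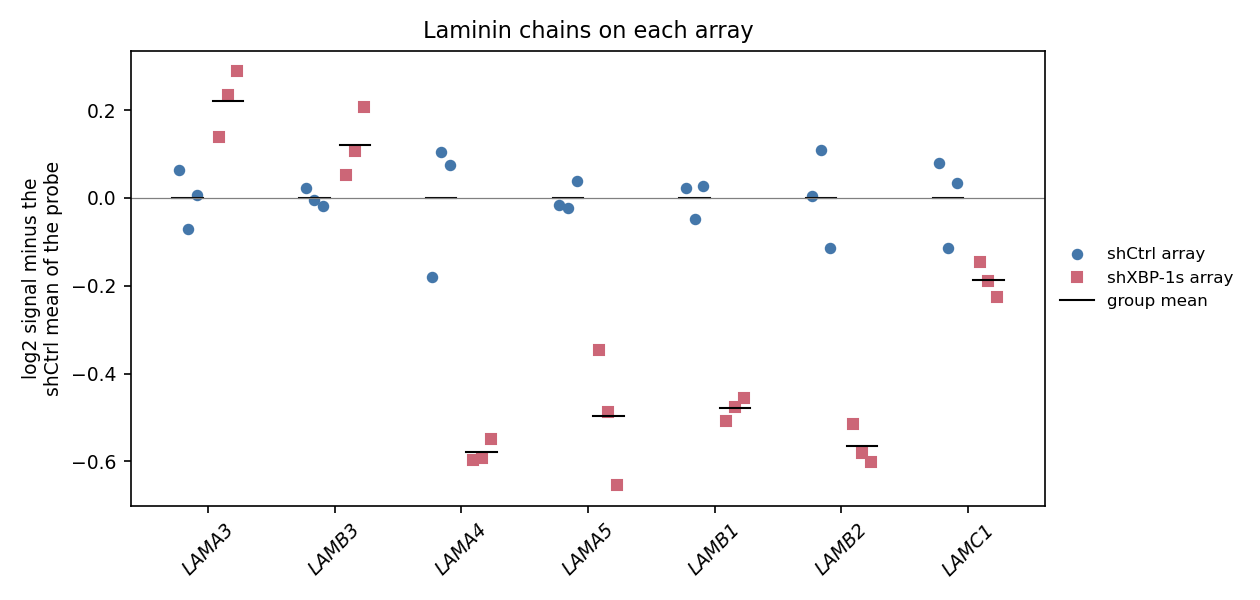
Log2 signal of 7 laminin chains by their brightest probe on each of the 6 arrays (vertical axis, minus the shCtrl mean of the same probe). Circles are shCtrl arrays, squares are shXBP-1s arrays and black lines are group means, with LAMA3 and LAMB3 above 0 and the other 5 chains below 0 on all shXBP-1s arrays.

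LAMA4, an alpha chain known from vessel walls and mesenchyme, was read by 4 probes that did not all move one way. The brightest had a relative signal of 0.401, 0.488 and 0.478 in shCtrl and of 0.300, 0.301 and 0.310 in shXBP-1s, which is a log2 fold change of -0.58 (SE 0.0803, adjusted p = 7.09e-04). A further pair of probes had its direction, at -0.67 (adjusted p = 2.66e-04) and -0.60 (adjusted p = 3.09e-04). The remaining probe read 0.130, 0.194 and 0.194 in shCtrl and 0.250, 0.268 and 0.244 in shXBP-1s, which is a log2 fold change of 0.58 (SE 0.152, adjusted p = 0.0164). This probe did not pass after normexp (0.15, adjusted p = 0.677) or without shXBP-1s replicate 2 (0.54, adjusted p = 0.0573), was at 0.39 without shCtrl replicate 1 and at 0.97 with the slide as a block, and stayed above 0 in all of these. The opposite probe and one of the lower probes carry the same RefSeq accession, NM_001105206. Of 5 endothelial markers, 4 were well above background on all 6 arrays, TEK was not on any array and 0 were called. Of 8 fibroblast markers, 5 were well above background on all arrays, COL3A1 and THY1 were not on any, DCN, LUM and PDGFRA were called higher and PDGFRB lower. PDGFRA was dim (unscaled signal between 3.1 and 14) and well above background on 1 shCtrl array and all 3 shXBP-1s arrays. It thus entered the test through shXBP-1s alone, the group where it was higher. The summed relative signal of the endothelial list overlapped, from 0.211 to 0.279 in shCtrl and from 0.256 to 0.274 in shXBP-1s. That of the fibroblast list did not, from 0.980 to 1.07 in shCtrl and from 0.674 to 0.696 in shXBP-1s, and their part in the LAMA4 values was not tested.

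The hemidesmosome partners did not pass by their brightest probes, but DST differed strongly between its probes. DST encodes dystonin, the plakin that links hemidesmosomes to keratin in its epithelial form and other cytoskeletal filaments in longer forms. The brightest DST probe, annotated with NM_015548, had a relative signal of 1.49, 1.43 and 1.48 in shCtrl and of 1.85, 1.62 and 1.56 in shXBP-1s. The groups did not overlap, and its log2 fold change of 0.19 (SE 0.0666) missed the threshold (adjusted p = 0.0543), which it passed with quantile normalization (0.24, adjusted p = 0.0240). The mean over all DST probes was 0.90 (adjusted p = 2.91e-05), still under 2-fold. The 2 other DST probes are annotated with NM_001723, the RefSeq transcript of the epithelial form. One of them read 0.548, 0.460 and 0.526 in shCtrl and 1.23, 1.23 and 1.20 in shXBP-1s. The other read 0.407, 0.297 and 0.384 in shCtrl and 0.886, 0.874 and 0.814 in shXBP-1s. On both probes every shXBP-1s array was above every shCtrl array, and both had a log2 fold change of 1.26 (SE 0.0691 and 0.112, adjusted p = 6.87e-06 and 7.14e-05). With the ITGA6 probe they brought the member probes called higher to 4 of 42, against 2.29% of all 27624 tested probes, and the member probes called lower stayed at 1, against 2.61%. The probe sequences were not used here, so which transcripts each DST probe can detect was not tested, and under normexp both were under 2-fold, at 0.97 and 0.87.

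PLEC, which encodes plectin and joins ITGB4 to keratin, read 0.410, 0.365 and 0.394 in shCtrl and 0.372, 0.376 and 0.351 in shXBP-1s. Its groups overlapped, and neither of its probes passed (log2 fold changes of -0.09 and -0.18, adjusted p-values of 0.305 and 0.294). CD151, a tetraspanin that binds laminin-binding integrins, read 46.2, 50.2 and 50.2 in shCtrl and 47.5, 49.95 and 55.6 in shXBP-1s. It also overlapped, and its log2 fold change of 0.06 had a 95% confidence interval from -0.11 to 0.23 (adjusted p = 0.544).

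**Figure D4:**
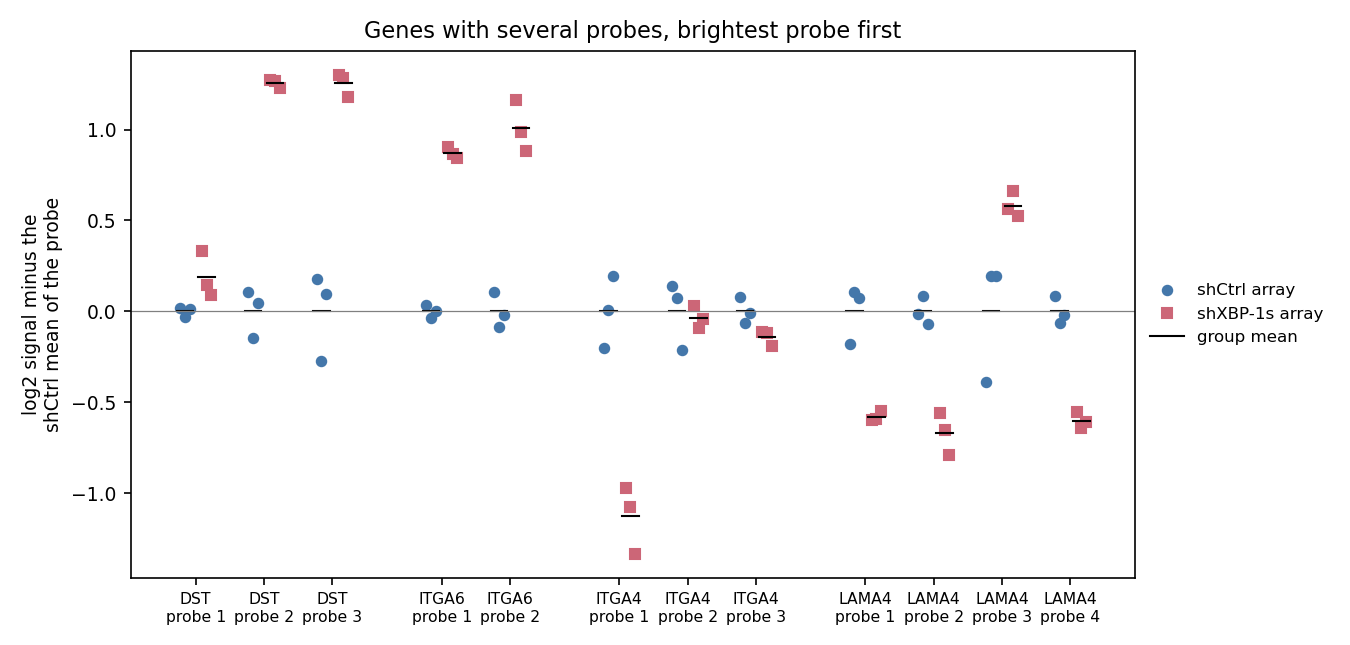
Log2 signal of each tested probe of DST, ITGA6, ITGA4 and LAMA4 on the 6 arrays (vertical axis, minus the shCtrl mean of that probe, brightest probe first). Circles are shCtrl arrays, squares are shXBP-1s arrays and black lines are group means. The dimmer DST probes sit near 1.26 in shXBP-1s, 1 LAMA4 probe rises while the other 3 fall, and only the first ITGA4 probe moves by more than 0.2.

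Because an integrin or laminin needs all its chains, 18 pairs of partner chains were also compared within each array, which cancels the scaling of the array. The log2 signal of one partner minus that of the other was taken on each array, and only its change between the groups is read. For 17 pairs both chains were measured (ITGB3 was not), and for 14 of them the groups did not overlap, against 56.5% of single tested genes, with no such share computed for pairs. The exact permutation test on 3 arrays against 3 cannot give a p below 0.1, which these 14 pairs had, and none passed after adjustment over the 17 pairs (adjusted p = 0.121). Relative to ITGB1, the change in shXBP-1s was 0.99 for ITGA2, 0.62 for ITGA6 and 0.51 for ITGA5 on the log2 scale, and it was -0.38 for ITGA3 and -0.43 for ITGAV. Relative to ITGB6, the change of ITGAV was -0.83, the widest of the ITGAV pairs. Within the hemidesmosome, the change of ITGA6 relative to ITGB4 was 0.48, as was that of ITGB4 relative to PLEC. The change of ITGA6 relative to LAMA3, a chain of its ligand, was 0.65. Among laminins, the change relative to LAMC1 was -0.29 for LAMB1 and -0.31 for LAMA5, and that of LAMA3 relative to LAMB3 was 0.10. The pairs that overlapped were LAMA5 with LAMB1, LAMA4 with LAMB1 and ITGB4 with DST, with changes of -0.02, -0.10 and 0.21. Each gene entered its pairs by its brightest probe alone. For DST that was the probe with a log2 fold change of 0.19, and the DST probes at 1.26 were not compared with ITGB4. Under normexp the changes of the 17 pairs kept their sign, but ITGA5 relative to ITGB1 was at 0.15, LAMA5 relative to LAMC1 at -0.58 and ITGB4 relative to PLEC at 0.79.

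**Figure D5:**
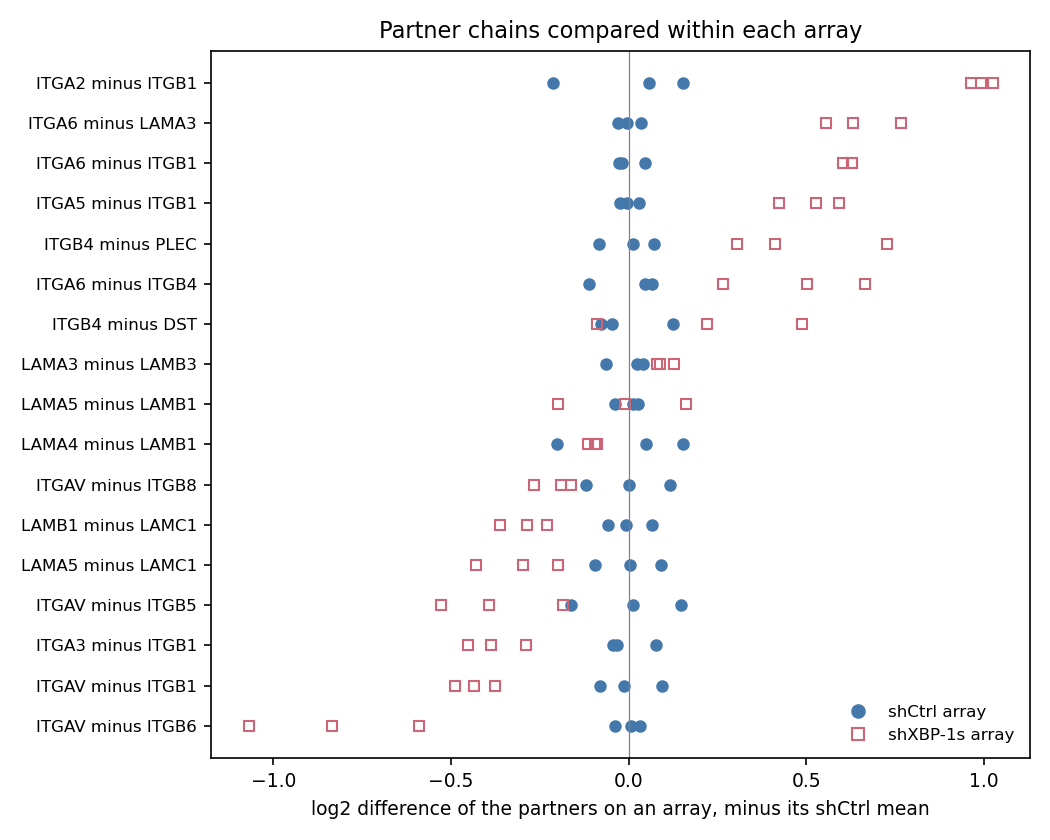
Difference in log2 signal between partner chains on each array (horizontal axis, minus the shCtrl mean of that difference) for 17 pairs (vertical axis). Filled circles are shCtrl arrays and open squares are shXBP-1s arrays, and the pairs run from ITGA2 minus ITGB1, at 0.99, to ITGAV minus ITGB6, at -0.83.

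Further genes of the adhesion pathway were described by lists, beside which stand the shares over all tested genes: 18.9% higher and 27.5% lower at an adjusted p below 0.05, 2.30% called higher and 2.88% called lower, and a median log2 fold change of -0.04. Of 18 tested integrin ligands other than laminins, 10 were higher and 3 lower at an adjusted p below 0.05, with a median log2 fold change of 0.22. The 4 called higher were TNC (1.70, adjusted p = 6.66e-06), CCN1 (1.25, adjusted p = 2.62e-06), THBS1 (1.20, adjusted p = 1.91e-05) and EDIL3 (1.19, adjusted p = 0.00510), all secreted matrix proteins that bind integrins. EDIL3 was dim and well above background on 2 shCtrl arrays and all 3 shXBP-1s arrays. It thus entered the test through shXBP-1s alone, the group where it was higher, which limits its p-value. VCAM1, the counter-receptor of ITGA4, was called lower (adjusted p = 0.00213) but was not well above background on any shXBP-1s array. VCAM1 entered the test through shCtrl alone, the group where it was higher, so its p-value rests partly on signals near background. It was at least 1.75-fold lower, taking the lowest signal well above background on an array as the floor. Of 13 other basement membrane and hemidesmosome genes, 7 were higher and 5 lower, with a median of 0.18. COL18A1, a basement membrane collagen, was called lower (-1.19, adjusted p = 1.32e-05). FREM2 was called lower as well (adjusted p = 8.06e-04), was not well above background on any shXBP-1s array and was at least 2.39-fold lower. FREM2 too entered the test through shCtrl alone, with the same limit on its p-value. COL17A1, the transmembrane collagen of the hemidesmosome, and COL7A1, the anchoring fibril collagen, were higher by 0.70 and 0.72 without reaching 2-fold (adjusted p = 1.42e-04 and 6.11e-05). Also under 2-fold, COL4A6 was at 0.79, whereas HSPG2, COL4A4 and FRAS1 were lower, at -0.70, -0.77 and -0.53. These uncalled genes were chosen for mention after their values were seen.

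Inside the cell, 14 of 33 integrin activators and focal adhesion proteins were higher and 5 were lower, with a median log2 fold change of 0.11, to be read against the same shares. TNS4, a short tensin that lacks the actin-binding part, was called higher (1.18, SE 0.0829, adjusted p = 2.03e-05). TNS3, a long tensin that joins integrin tails to actin, was called lower (-1.34, SE 0.0588, adjusted p = 3.06e-06). Of 14 tested genes for integrin inhibition and traffic, 2 were higher, 5 were lower and none was called, with a median of -0.14. Of 14 tested tetraspanins and lateral partners, 4 were higher and 7 lower, with a median of -0.21, and BCAM, a receptor for laminins that contain LAMA5, was the 1 called, at -1.54 (adjusted p = 6.12e-05). BCAM was well above background on every array but dim, with mean log2 relative signals of -5.03 in shCtrl and -6.57 in shXBP-1s.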

How the data were processed

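The 6 CAL-27 samples were grouped by their labels. The authors deposited 1 scanner table per array from Agilent Feature Extraction 11.0.1.1, with spot intensity after background subtraction. A deposited table of log2 values with equal quartiles, for which the submitters' processing notes name RMA, served as an alternative. The labels describe a NimbleGen labelling protocol, whereas the arrays are Agilent.

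Log2 signals were set relative to the 75th percentile of their array, flagged spots (230 to 377 of 44495 per array) were left out and repeat spots were averaged for each probe. A probe entered the test if every array of 1 or both groups had it well above background (over 50% of its spots), which 27624 did, and 19 incomplete probes were excluded. The test was limma 3.58.1 under R 4.3.3 (lmFit, then eBayes with a trend, 2-sided, Benjamini-Hochberg). RefSeq accessions named 25771 probes, and the brightest tested probe stood for a gene. The test was checked on simulated data. The array annotation names hg19, so coordinates come from RefSeq promoters alone. The members, gene lists, motifs and the genes named (all members, key members with every array, and up to 4 called genes per list) were chosen with earlier results of these data known. Partner pairs were compared with an exact permutation test, 2-sided. The number of arrays limits the precision. Alternatives were normexp on the median signal (offset 50), quantile normalization, deposited values, other filters and tests, blocks for slide or replicate number, probe means, 1.5-fold and leaving out each array.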

Additional observations from a re-analysis of the deposited data

How the results depend on the processing

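ITGA2 was called higher, and the log2 fold change of XBP1 stayed past the threshold, under every alternative run, and leaving out any array left 1 member called higher (1 to 1) and 1 lower (1 to 1). The call of ITGA4 did not hold under normexp (-0.88), normexp with quantile normalization (-0.73), the slide as a block or within slide 2 (-0.93 in both) and the mean over probes (-0.44), so the count of members called lower was 0 there. Normexp also gave 2 members called higher, with ITGA6 at 1.05, left 5 lower at an adjusted p below 0.05, and shifted the median of all tested probes to -0.41 and of members to -0.078. Under it ITGA9 (-0.47), ITGA10 (-0.91), ITGB7 (-0.0603), LAMA2 (-0.70) and LAMC3 (-0.44) reversed, and none of the 5 passed. With normexp and quantile normalization the 5 kept their sign, at 0.11, 0.01, 0.24, 0.12 and 0.08 in the same order. The slide as a block and the arrays within slide 2 each left 5 members higher at an adjusted p below 0.05, as did the methods' test with Benjamini-Hochberg adjustment. A 1.5-fold minimum called 4 members higher and 2 lower. The median of members was 0.10 with quantile normalization (0.0992) and with the deposited values (0.0991), and between -0.0158 and 0.11 when arrays were left out in turn. ITGA1 and ITGAV did not pass without shCtrl replicate 3 or shXBP-1s replicate 2, LAMA3 without shCtrl replicate 2 or shXBP-1s replicate 2, LAMA2 without shCtrl replicate 2 or any shXBP-1s array, ITGB7 without any array but shCtrl replicate 1 and LAMC1 without any but shCtrl replicate 2, whereas DST passed without shXBP-1s replicate 3 and ITGB5 without shCtrl replicate 1. DST also passed with quantile normalization (0.24), the deposited values (0.24), the replicate block (adjusted p = 0.0478) and the mean over its probes (0.90). CD151 passed with quantile normalization (0.15) and ITGA9 with the slide as a block (0.40). Over the fits that left out 1 array, members higher ranged from 6 to 10 and members lower from 6 to 9. With quantile normalization and with the deposited values 12 were higher and 8 lower. When arrays were left out in turn, ITGB8 (between -0.0454 and 0.0905), ITGA10 (between -0.14 and 0.2565) and CD151 (between -0.0037 and 0.11) took both signs, reversing without shXBP-1s replicate 3 and, for ITGB8, without shCtrl replicate 1, and none passed. The second ITGA6 probe was under 2-fold with normexp and quantile normalization (0.99) and with the slide as a block (0.90). This alternative for single probes was chosen after seeing the data. The LAMA4 probe of opposite sign did not pass under normexp (0.15), without shXBP-1s replicate 2 (0.54) or by the methods' test with Benjamini-Hochberg adjustment (adjusted p = 0.102). For partner pairs, normexp with quantile normalization gave 0.34 for ITGA5 relative to ITGB1 and -0.16 for LAMA5 relative to LAMC1, and LAMA5 (0.15) and LAMA4 (0.09) relative to LAMB1 changed sign. The cause of these changes was not tested.

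Deviations of same-numbered samples from their group means correlated at -0.02, 0.12 and -0.12, and those of differently numbered samples between -0.13 and 0.12. With 3 samples per group, these values cannot decide whether the replicate numbers pair the samples, and the labels do not say. With the replicate block, 1 member was called higher and 1 lower, and 10 were higher and 9 lower at an adjusted p below 0.05, with a median of 0.06. Only the median spot signal was at hand for normexp. Dim probes such as ITGA10 and LAMA2 are limited by their signal over background.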
